A study of Danio rerio with 20 samples.

Results

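The dlx genes encode homeodomain transcription factors of the Distal-less family, which act in the forebrain, the pharyngeal arches, the sensory placodes and the fins of vertebrate embryos. Most of them lie in the genome as neighbouring pairs, and the members of a pair share regulatory elements and overlap in where they are expressed. In the zebrafish forebrain dlx1a and dlx2a mark the ventral territories that give rise to GABAergic neurons, and in the cranial neural crest the combination of active dlx genes is known to set the dorsal to ventral identity of the jaw skeleton.

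Of 16407 probes on the array, 6 were chosen for their gene, each named on the array by the RefSeq record of that gene: 45e10 for dlx1a, 45g10 for dlx2a, 45c10 for dlx2b, 45i10 for dlx3b, 45f10 for dlx5a and 45j10 for dlx6a. The choice was made by gene name, with earlier results of these data known. dlx4a and dlx4b, also on the array, were not among the 6. In the RefSeq gene table for zebrafish, dlx1a and dlx2a are next to each other on chromosome 9, and dlx5a and dlx6a are next to each other on chromosome 19. dlx3b has dlx4b as a neighbour on chromosome 12, and dlx2b stands apart from the others on chromosome 1.

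The study exposed zebrafish embryos to dimethylformamide (DMF) or dimethyl sulfoxide (DMSO), both used to dissolve test chemicals for aquatic toxicity tests. Total RNA of whole embryos at 48 h post fertilisation was compared on arrays with 2 colours, Cy3 and Cy5. The groups were DMF at 0.1 ml/L, DMF at 0.025 ml/L, DMSO at 0.1 ml/L, DMSO at 0.025 ml/L and unexposed controls. Exposure began at early cleavage, and each RNA sample was a pool of the embryos that survived on 1 plate of up to 20, so that differences between single embryos, and embryos that died, are not seen. Each of the 5 groups had 4 pools. The pools were set against each other in 10 pairs, each hybridised to 2 arrays with the dyes exchanged. The labels give no strain and no separation of tissues, and none of the 23 genes listed as markers of neural, muscle, blood, yolk or skin tissue was on the array under its symbol, so the tissue was not checked against markers.

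The file of array 1 names the scan of array 17, and 29.2% of its 17328 spots, all 6 dlx spots among them, had the same amplitude in both channels as on array 17. Array 1 and its partner array 2 were left out of the fit, which leaves 18 arrays in 9 pairs. These hold 4 pools each of DMF 0.1, DMSO 0.025 and control, and 3 pools each of DMF 0.025 and DMSO 0.1. The scan names put 12 of these arrays in a second batch and 6 in a last batch. Spots above the lowest confidence grade made up 35.5% to 51.0% of probe spots in the second batch and 56.2% to 67.4% in the last. Per pool, the ratio of the median probe amplitude to the median of empty spots was 1.12 to 12.6 in the second batch and 3.46 to 28.9 in the last. In each pair of the second batch the same pool had the weaker signal over empty spots in both dye orientations. These 6 weaker pools were DMF 0.025 replicate 1, DMSO 0.1 replicate 3, DMSO 0.025 replicates 2, 3 and 4, and control replicate 1. Their medians were 1.12 to 1.88 times the empty spots. The name is relative to the pair, since DMF 0.025 replicate 4, not among them, was at 1.79 in Cy5. In the last batch DMF 0.1 replicate 2 and control replicate 3 were also weaker than their partners, at 3.88 to 7.06. They are not counted as weaker pools here.

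The 6 dlx genes were seen to very different degrees at 48 h. Each spot carries a confidence grade of A (best) to E, and each channel a probability of being on, here called on at 0.5 or more. dlx1a was above grade E on all 18 arrays and on in 35 of 36 channels. dlx2a was likewise above grade E on all 18 arrays and on in 33 of 36 channels. Among all probe spots 17.1% were above grade E on all 18 arrays, 5.59% on 17, 4.69% on 7, 4.63% on 6 and 7.88% on none. dlx5a, a gene of the ventral pharyngeal arches, the otic vesicle, the forebrain and the fin fold, was above grade E on 17 arrays and on in 30 of 36 channels. All 6 channels in which dlx5a was off belonged to the weaker pools of the second batch, where it was on in 6 of 12 channels, against 12 of 12 for the other pools of that batch and 12 of 12 in the last batch.

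**Figure D1:**
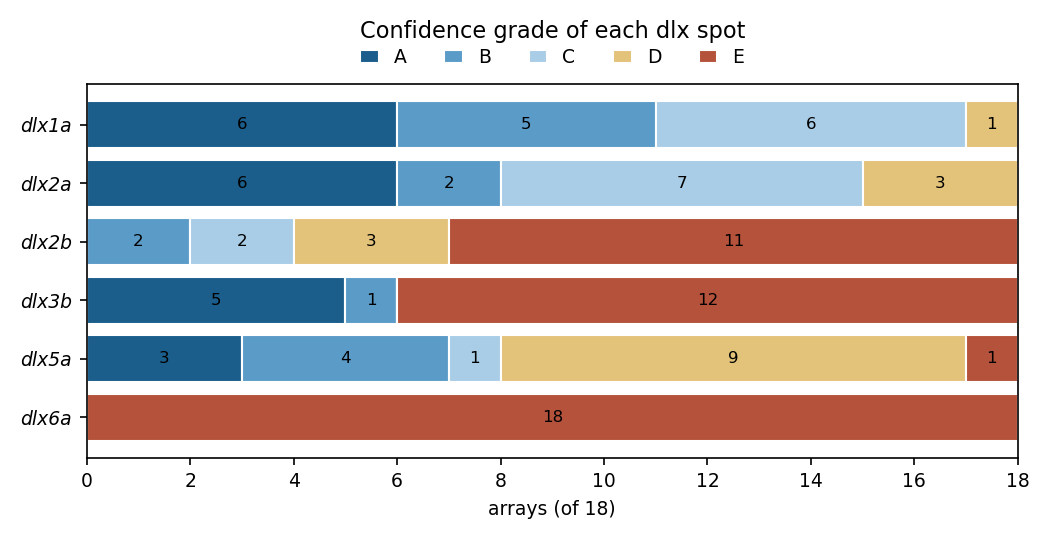
Number of the 18 arrays on which the spot of each dlx gene received confidence grade A (best) to E (lowest). dlx1a and dlx2a have no spot of grade E, dlx5a has 1, and dlx6a has grade E on all 18 arrays.

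The remaining members had too few measured spots for a test, which required a ratio in at least 8 of the 9 pairs. By that rule 3 of the 6 members were tested, and 3652 of all 16407 probes. dlx2b, known in zebrafish from the developing teeth and the forebrain, had grade E on 11 arrays, all in the second batch, and gave a ratio in 3 pairs. It was on in 3 of 24 channels of the second batch and in 12 of 12 of the last. dlx3b, which acts with dlx4b in the ectoderm that forms the ear and nose placodes, had grade E on all 12 arrays of the second batch. It was on in 4 of 24 channels there and in 12 of 12 channels of the last batch, with grade A on 5 arrays and B on 1. dlx6a, the neighbour of dlx5a, had grade E on all 18 arrays and was on in 2 of 36 channels, so that no dlx6a level or ratio is given. Its amplitude passed the 95th percentile of the empty spots in 0 of 36 channels. The dlx5a probe passed it in 20 of 36, and the dlx1a and dlx2a probes in 26 of 36 each.

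In the last scan batch, where both were above grade E on every array, dlx2b and dlx3b gave small ratios between pools. Their signal there was partly near that of empty spots. The amplitude passed the 95th percentile of the empty spots in 3 of 12 channels for dlx2b and in 8 of 12 for dlx3b. The part of this weak signal in the small ratios was not tested. The log2 ratio of dlx2b was 0.23 for DMF 0.1 replicate 1 over control replicate 3, -0.05 for DMF 0.1 replicate 2 over DMF 0.025 replicate 3, and 0.23 for DMF 0.1 replicate 3 over DMSO 0.1 replicate 4. The ratios of dlx3b over the same 3 pairs were 0.14, 0.02 and -0.25. With 1 pair per comparison these values have no replicate. The deviation of either dye orientation from the mean of its pair had a median of 0.23 for dlx2b and 0.17 for dlx3b. It includes any dye difference shared by all pairs, which cancels in the mean, so it is not an error of the mean. The dlx2b ratios were about as large as that deviation or smaller. The dlx3b ratio of DMF 0.1 over DMSO 0.1 was larger in size.

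The test was run on all 3652 probes with a ratio in at least 8 pairs, with the 9 pairs of pools as samples, in limma with Benjamini-Hochberg adjustment. None of the 3 tested dlx genes was called at an adjusted p under 0.05 in any of the 8 comparisons. Over all probes tested, 0.712% were called for DMF 0.1 minus DMSO 0.1, 0.438% for DMSO 0.1 minus DMSO 0.025 and 0.274% for DMSO 0.1 minus control, and 0% in the other 5 comparisons. At an unadjusted p under 0.05, 1 of the 3 dlx genes, dlx5a each time, stood below the threshold for DMF 0.025 minus DMSO 0.025, DMSO 0.1 minus DMSO 0.025 and DMSO 0.1 minus control, where 9.56%, 17.3% and 12.4% of all probes did. In the other 5 comparisons 0 of the 3 did, where 12.8% of all probes did for DMF 0.1 minus DMSO 0.1, 6.33% for DMF 0.025 minus control, 4.44% for DMSO 0.025 minus control, 2.79% for DMF 0.1 minus DMF 0.025 and 1.01% for DMF 0.1 minus control. The F test over the 4 differences from control gave adjusted p = 0.729 for dlx1a, 0.878 for dlx2a and 0.456 for dlx5a, with 0.11% of all probes called. Since whole embryos were pooled, fewer cells that express a gene and less of its RNA per cell cannot be told apart.

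dlx1a, a gene of the ventral forebrain and the neural crest of the arches, differed from the controls by at most 0.36 on the log2 scale in the 4 exposed groups, with no call. Its log2 level, the amplitude after normalization within and between arrays averaged over the 2 arrays of a pool, was 9.84, 9.52, 9.34 and 9.83 in the DMF 0.1 pools. It was 10.53, 9.36 and 10.21 in the DMF 0.025 pools. The DMSO pools gave 10.03, 9.82 and 9.17 at 0.1 ml/L and 10.05, 9.85, 9.69 and 9.67 at 0.025 ml/L. The control pools were the most even group, at 9.97, 9.96, 9.82 and 9.99. No exposed group lay wholly above or wholly below the controls.

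The group means of dlx1a were 9.63 ± 0.25 for DMF 0.1 (SD, n = 4), 10.03 ± 0.61 for DMF 0.025 (n = 3), 9.67 ± 0.44 for DMSO 0.1 (n = 3), 9.81 ± 0.18 for DMSO 0.025 (n = 4) and 9.93 ± 0.07 for control (n = 4). The order, highest first, was DMF 0.025, control, DMSO 0.025, DMSO 0.1, DMF 0.1. All neighbours in this order lay within the SD of one of the 2 groups. These levels are set across arrays, and the groups were spread unevenly over the scan batches. The 3 lowest dlx1a pools, 1 each of DMF 0.1, DMF 0.025 and DMSO 0.1, were all in the last batch. That batch also held DMF 0.1 pools at 9.84 and 9.52 and a control pool at 9.82. The part of the scan batch in the levels was not tested. The fit on ratios, taken within an array, put DMF 0.1 0.20 ± 0.19 (SE) above control, while its mean level was below, so the order of levels is a description only.

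In that fit dlx1a differed from control by 0.20 ± 0.19 in DMF 0.1, 0.36 ± 0.20 in DMF 0.025, -0.00 ± 0.20 in DMSO 0.1 and -0.05 ± 0.19 in DMSO 0.025 (log2 ± SE, adjusted p 0.863 to 0.999 in limma). The 95% interval for DMSO 0.1 ran from 0.736-fold to 1.36-fold. The widest dlx1a difference was DMF 0.025 over DMSO 0.025, at 0.41 ± 0.20 on the log2 scale, a 1.33-fold difference with a 95% interval of 0.983 to 1.81 and adjusted p = 0.552. The pair that met directly, DMF 0.025 replicate 4 and DMSO 0.025 replicate 3, gave 1.23 with DMF in Cy5 and -0.19 with DMF in Cy3. The sign therefore changed with the dye orientation in that pair, and the DMSO pool in it was one of the weaker pools.

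dlx2a, the chromosomal neighbour of dlx1a with a like role in forebrain and neural crest, had the smallest median deviation between dye orientations of the 3 tested genes. The median deviation from the pair mean was 0.11 on the log2 scale, against 0.21 for dlx1a and 0.68 for dlx5a. The sign of dlx2a still changed with the orientation in most pairs. In every pair of the fit the dlx2a ratio was higher with the first-named pool in Cy5. The same held for dlx1a in all pairs but DMSO 0.1 replicate 2 over DMSO 0.025 replicate 2. A dye difference shared by all pairs cancels in the pair mean. DMF 0.1 replicate 4 over DMSO 0.025 replicate 4 gave 0.50 with DMF in Cy5 and -0.66 with DMF in Cy3. DMF 0.025 replicate 4 over DMSO 0.025 replicate 3 gave 0.74 and -0.39. The log2 level of dlx2a was 9.92, 9.66, 8.98 and 9.27 in the DMF 0.1 pools and 9.54, 9.60 and 9.73 in the DMF 0.025 pools. It was 9.91, 9.69 and 8.96 in the DMSO 0.1 pools and 9.68, 9.92, 9.55 and 9.35 in the DMSO 0.025 pools. The control pools gave 8.98, 9.45, 9.75 and 9.77. All 4 exposed groups overlapped the controls.

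The group means of dlx2a were 9.46 ± 0.41 for DMF 0.1 (SD, n = 4), 9.62 ± 0.10 for DMF 0.025 (n = 3), 9.52 ± 0.50 for DMSO 0.1 (n = 3), 9.62 ± 0.24 for DMSO 0.025 (n = 4) and 9.49 ± 0.37 for control (n = 4). The order, highest first, was DMSO 0.025, DMF 0.025, DMSO 0.1, control, DMF 0.1, and the range of these means was smaller than the SD of 4 of the groups. The 4 differences from control in the fit were 0.21 ± 0.19 for DMF 0.1, 0.24 ± 0.21 for DMF 0.025, 0.13 ± 0.21 for DMSO 0.1 and 0.30 ± 0.19 for DMSO 0.025 (log2 ± SE, adjusted p 0.832 to 0.999 in limma). All 4 had a positive sign and all 4 use the same control pools. The control pool with the lowest dlx2a level, replicate 1, was one of the weaker pools, and DMSO 0.025 replicate 1 over it gave a log2 ratio of 0.69, the highest dlx2a ratio among the 9 pairs. Without that pair the differences were 0.07 for DMF 0.1, 0.10 for DMF 0.025, -0.00374 for DMSO 0.1 and 0.03 for DMSO 0.025, so that 1 of the 4 turned its sign.

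**Figure D2:**
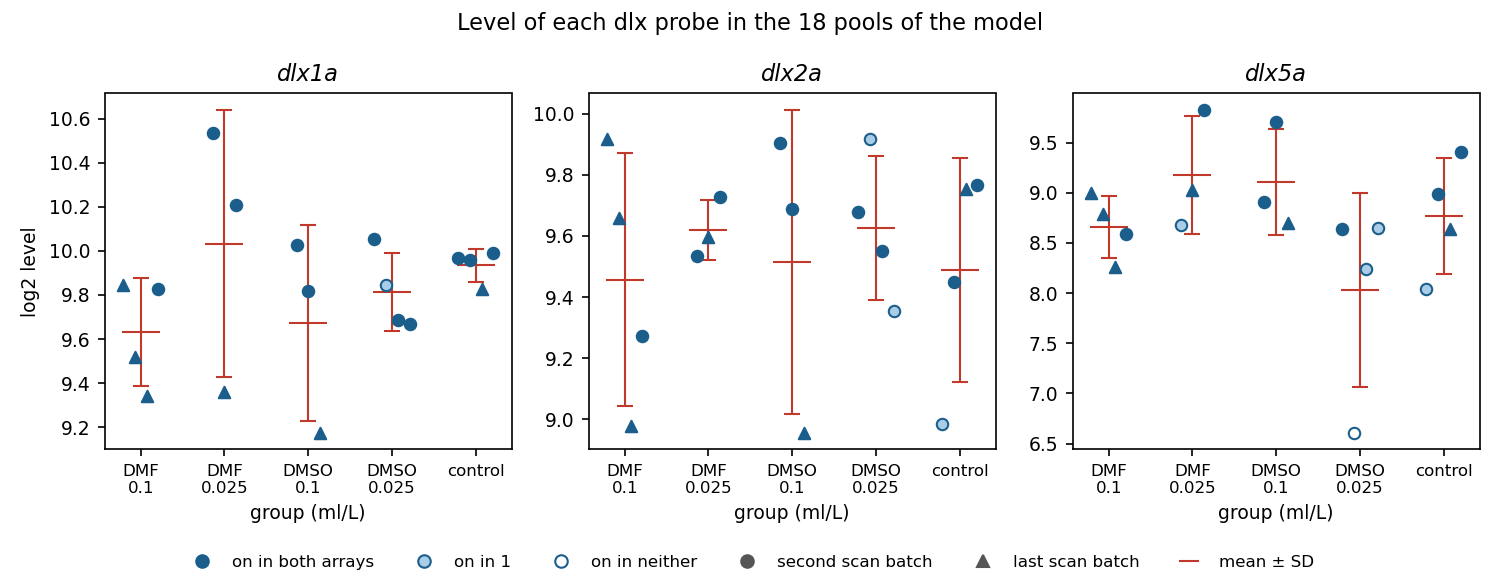
Log2 level of dlx1a, dlx2a and dlx5a in each of the 18 pools, by group, with group mean and SD in red. The filling of a point shows in how many of its 2 arrays the channel was on, circles are pools of the second scan batch and triangles those of the last; the vertical scales differ between panels. The lowest dlx5a point, at 6.61, is a DMSO 0.025 pool that was on in neither array.

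dlx5a had the widest spread of the tested members. Its log2 level was 8.999, 8.78, 8.26 and 8.59 in the DMF 0.1 pools and 8.68, 9.03 and 9.83 in the DMF 0.025 pools. It was 8.91, 9.71 and 8.70 in the DMSO 0.1 pools, against 8.64, 6.61, 8.24 and 8.65 in the DMSO 0.025 pools. The control pools gave 8.04, 8.99, 8.64 and 9.40. The 3 DMSO 0.1 pools were all above the 4 DMSO 0.025 pools, with 8.70 as the lowest against 8.65 as the highest, a separation that 4.49% of all probes tested showed in the same direction and 2.16% in the opposite one. Each of the 4 exposed groups overlapped the controls.

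The group means of dlx5a were 8.66 ± 0.31 for DMF 0.1 (SD, n = 4), 9.18 ± 0.59 for DMF 0.025 (n = 3), 9.11 ± 0.53 for DMSO 0.1 (n = 3), 8.03 ± 0.97 for DMSO 0.025 (n = 4) and 8.77 ± 0.58 for control (n = 4). The order, highest first, was DMF 0.025, DMSO 0.1, control, DMF 0.1, DMSO 0.025. Neighbours in this order lay within the SD of one of the 2 groups. The DMSO 0.025 group was the least well measured: dlx5a was on in both arrays for 1 of its 4 pools, in 1 array for 2 pools and in neither for replicate 2. In the other groups it was on in both arrays for 4 of 4 pools of DMF 0.1, 2 of 3 of DMF 0.025, 3 of 3 of DMSO 0.1 and 3 of 4 of control.

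The comparison of the higher with the lower DMSO concentration had the widest fitted dlx5a value, which was not called and is set against a group that was poorly measured. Only replicate 1 of DMSO 0.025 had a dlx5a amplitude above the 95th percentile of empty spots, and in replicate 2 it was 0.177 times that percentile in Cy5 and 0.0712 times in Cy3. The fitted value for DMSO 0.1 minus DMSO 0.025 was 1.57 ± 0.41 on the log2 scale (2.97-fold, 95% interval 1.60 to 5.51, adjusted p = 0.117 in limma), and it was 0.73 without the 1 pair in which these groups met. The size of this difference is therefore uncertain beyond the interval of the fit. The SE and interval of limma also draw the spread of each probe toward that of all probes tested. For dlx5a, whose own residual SD was larger than that of 99.1% of the probes tested, this narrows both. The same step was 0.05 ± 0.20 for dlx1a and -0.17 ± 0.21 for dlx2a (adjusted p 0.925 and 0.735), and the median over all probes was -0.03. The DMF step, 0.1 minus 0.025 ml/L, was -0.07 ± 0.41 for dlx5a, with a 95% interval of 0.514-fold to 1.77-fold and adjusted p = 0.997. The difference between the DMF step and the DMSO step was -1.64 ± 0.54 for dlx5a (adjusted p = 0.265 in limma); 0.329% of all probes were called in that test, and none of the 3 dlx genes. At an unadjusted p under 0.05, 13.6% of all probes and dlx5a among the 3 passed it.

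**Figure D3:**
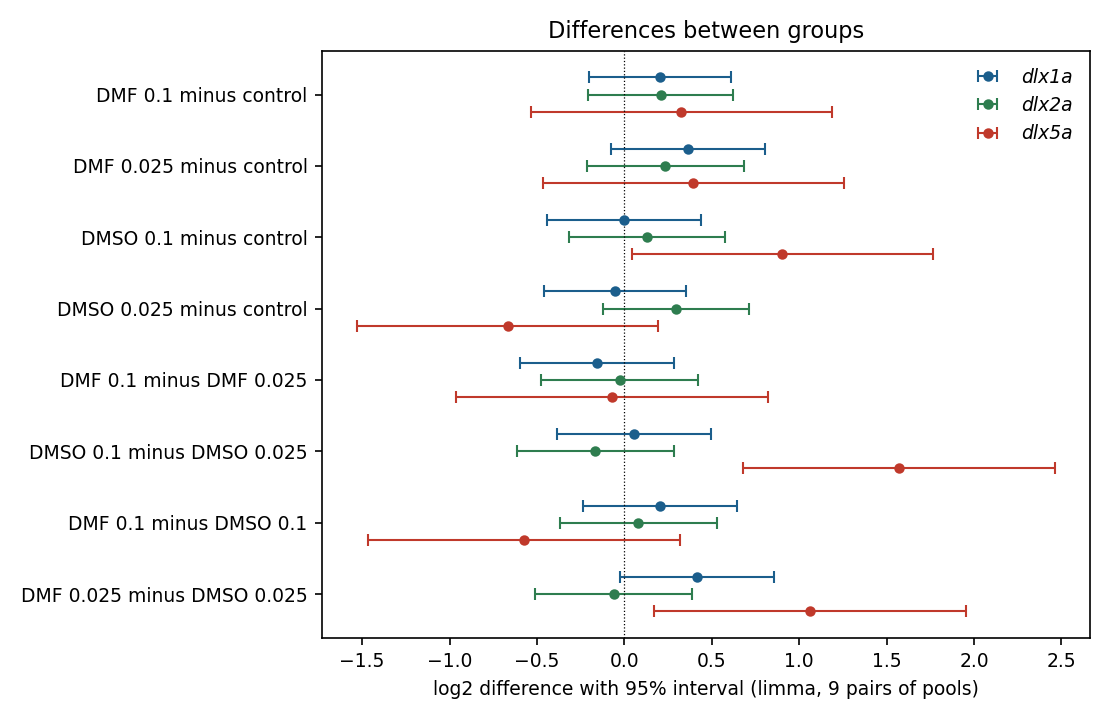
Log2 difference between groups for dlx1a, dlx2a and dlx5a in the 8 comparisons, with 95% intervals from the fit over 9 pairs of pools. The dlx5a intervals leave out 0 for DMSO 0.1 minus control, DMSO 0.1 minus DMSO 0.025 and DMF 0.025 minus DMSO 0.025. The adjusted p there is 0.379, 0.117 and 0.488 in limma. The limma intervals draw on the spread of all probes tested, which narrows those of dlx5a.

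Against control, dlx5a was 0.33 ± 0.40 in DMF 0.1, 0.40 ± 0.40 in DMF 0.025, 0.90 ± 0.40 in DMSO 0.1 and -0.67 ± 0.40 in DMSO 0.025 (log2 ± SE, adjusted p 0.999, 0.906, 0.379 and 0.996 in limma). The only pair of DMSO 0.025 with control had a mean log2 ratio of 0.60, and that of DMF 0.025 with control -0.31. Both are opposite in sign to the fitted values, which also draw on indirect pairs. The direct pairs of DMF 0.1 and DMSO 0.1 with control, at 0.36 and 0.31, had the sign of the fit. Both solvents were also compared at equal concentration. DMF 0.1 minus DMSO 0.1 was -0.58 ± 0.41, an interval of 0.362-fold to 1.24-fold, with adjusted p = 0.572. DMF 0.025 minus DMSO 0.025 was 1.06 ± 0.41, a 2.09-fold difference with an interval of 1.13 to 3.88 and adjusted p = 0.488. These comparisons share pools, so the DMSO 0.025 group enters 3 of the 4 widest dlx5a differences.

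The single pairs show what these dlx5a values rest on. The only pair in which DMSO 0.1 met DMSO 0.025 gave a log2 ratio of 3.50 with DMSO 0.1 in Cy5 and 1.12 with it in Cy3, a mean of 2.31. The DMSO 0.025 pool of that pair was replicate 2, in which the probability of dlx5a being on was 0.01 on both arrays, and whose median probe amplitude was 1.12 and 1.53 times that of empty spots. The part of this weak signal in the ratio was not tested. Without DMSO 0.025 replicate 1 and control replicate 1 the DMSO step was 2.20 (adjusted p = 0.00254 in limma). That pair held the only DMSO 0.025 pool in which dlx5a was on in both arrays. The DMSO 0.025 side then rests on replicate 2 and on replicate 3, whose probability of being on was 0.01 and 0.60. The pair of replicate 4 gave no dlx5a ratio because of a grade E spot. Under loess within each print tip the DMSO step was 0.60.

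DMF 0.025 replicate 4 over DMSO 0.025 replicate 3 gave 3.66 with DMF in Cy5 and -0.48 with DMF in Cy3, so the 2 orientations differed in sign. DMF 0.025 replicate 1 over control replicate 2 likewise gave 1.59 and -2.21. Without the first of these pairs the difference of DMF 0.025 minus DMSO 0.025 was 0.46, and without the pair of DMSO 0.025 replicate 1 and control replicate 1 it was 1.70 (adjusted p = 0.0346 in limma). DMSO 0.1 replicate 3 over control replicate 4 gave 1.37 and -0.76, also of opposite sign, and without it DMSO 0.1 minus control was 1.42 in place of 0.90. DMSO 0.025 replicate 1 over control replicate 1 gave 0.88 and 0.31, and without it DMSO 0.1 minus control was 0.43. Over the 8 pairs with a dlx5a ratio the median deviation of an orientation from the pair mean was 0.68. Over all probes tested the median per pair was 0.14 to 0.36. In each of these 8 pairs the dlx5a ratio was higher with the first-named pool in Cy5. A dye difference shared by all pairs cancels in the pair mean. The residual SD of dlx5a in the fit, 0.911, was larger than that of 99.1% of the probes tested, while those of dlx1a (0.232) and dlx2a (0.252) were larger than 24.2% and 29.7%.

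**Figure D4:**
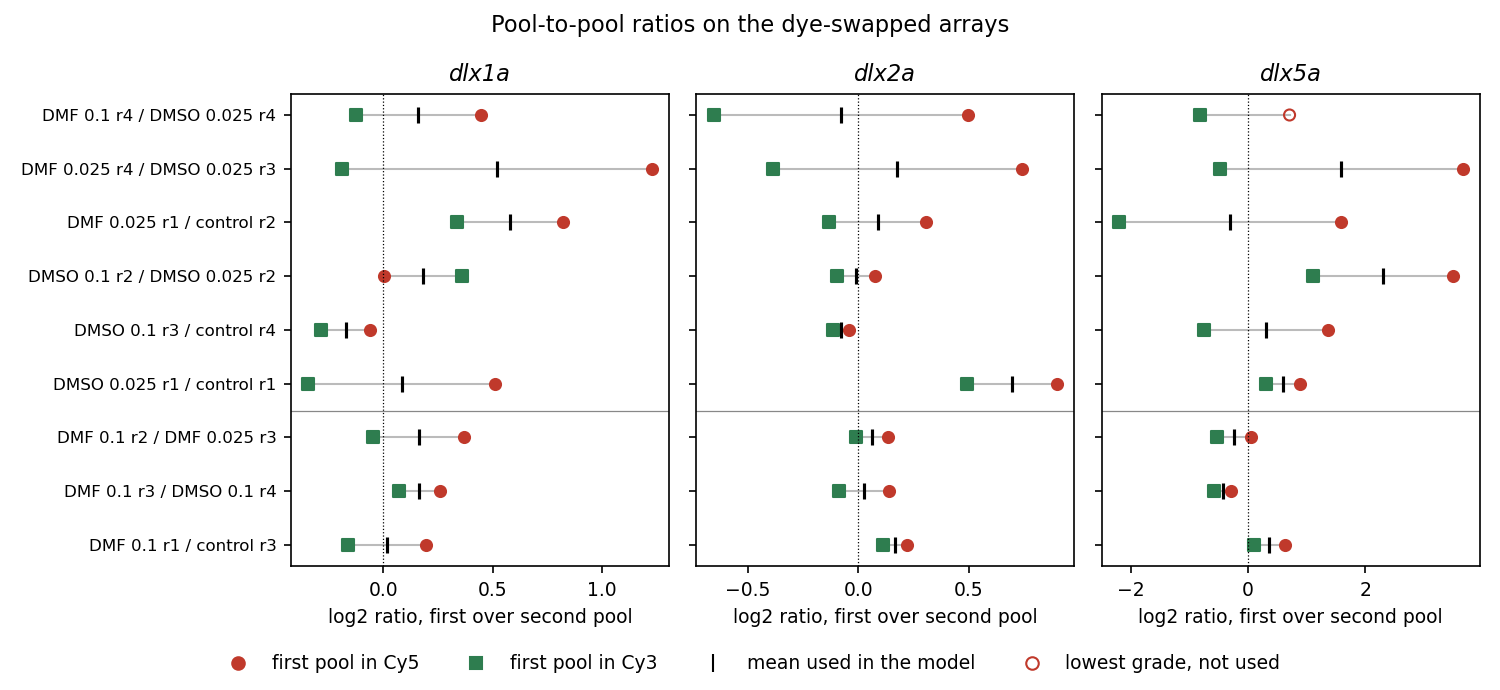
Log2 ratio of the first over the second pool in each of the 9 pairs for dlx1a, dlx2a and dlx5a, with the first pool in Cy5 (circles) or Cy3 (squares) and their mean (bar). Pairs above the horizontal line belong to the second scan batch, those below to the last; scales differ between panels. The dlx5a orientations are up to 4.14 apart in the second batch and at most 0.59 apart in the last.

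The 3 pairs of the last scan batch, in which all dlx5a spots had grade A or B, gave small dlx5a ratios. DMF 0.1 replicate 1 over control replicate 3 was 0.62 and 0.10 in the 2 orientations, a mean of 0.36. DMF 0.1 replicate 2 over DMF 0.025 replicate 3 had a mean of -0.24, and DMF 0.1 replicate 3 over DMSO 0.1 replicate 4 a mean of -0.44. Taken along these pairs, DMSO 0.1 stood 0.80 above control and DMF 0.025 0.61 above control within that batch, with no replicate and no test. These values treat different DMF 0.1 pools, with dlx5a levels of 8.999, 8.78 and 8.26, as the same pool. The spread between those pools therefore enters them. The pool levels in that batch were 8.70 for DMSO 0.1 replicate 4, 9.03 for DMF 0.025 replicate 3 and 8.64 for control replicate 3. DMSO 0.025 had no pool in the last batch. In the second batch alone the DMSO step was 1.64, with adjusted p = 0.0242 in limma. Beside the same direct pair, it uses DMSO 0.025 replicate 1 and DMSO 0.1 replicate 3, each over a control pool, at 0.60 and 0.31. It also uses DMF 0.025 replicate 4 over DMSO 0.025 replicate 3, at 1.59, and DMF 0.025 replicate 1 over control replicate 2, at -0.31. As in every pair of the second batch, a weaker pool stands in each of these pairs.

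**Figure D5:**
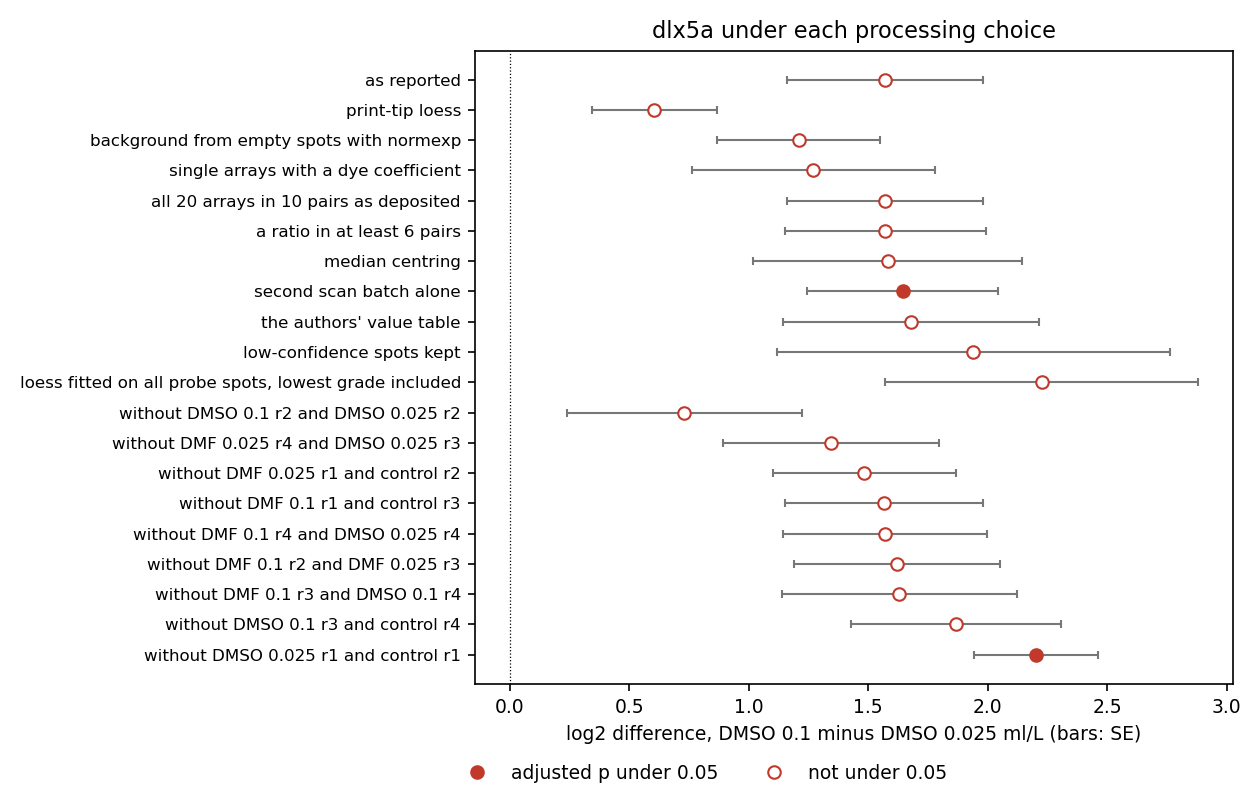
Log2 difference of dlx5a, DMSO 0.1 minus DMSO 0.025, as reported, under the other processing choices that gave a dlx5a value, and with each pair of pools left out, with its SE; separate channels and the replicate block gave none. The values range between 0.60 with loess per print tip and 2.23 with loess fitted on all spots. An adjusted p under 0.05 (filled) is reached with the second scan batch alone and without DMSO 0.025 replicate 1 and control replicate 1. The latter setting leaves DMSO 0.025 with replicates 2 and 3, in which dlx5a was on in at most 1 array.

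Likeness between genes was read from their pair ratios, as a description. The 2 genes of each comparison were measured on the same arrays and pools. The Pearson correlation was 0.05 between the neighbours dlx1a and dlx2a over 9 pairs, 0.10 between dlx1a and dlx5a over 8 pairs and 0.04 between dlx2a and dlx5a over 8 pairs. It depends on which pool of a pair is on top; the cosine of the ratios, which does not, was 0.331, 0.381 and 0.294 for the same 3 comparisons. Without the 2 pairs farthest from the median of one of the genes the Pearson values ran between -0.611 and 0.603, so these few pairs do not fix how the dlx genes vary with each other.

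For each dlx gene the 3 highest Pearson correlations among the 14 tested probes with a gene symbol were named. Other dlx genes and genes with fewer than 8 shared pairs were left out. Most of these values rest on few pairs. For dlx2a, zeb1b, a zinc finger repressor, had 0.853 over 9 pairs, 0.657 without the 2 farthest pairs and a cosine of 0.815. Below it, mafba, a hindbrain factor, had 0.421, which was 0.0277 without the 2 farthest, and hoxa13b, a posterior Hox gene, had 0.386 and 0.269. By cosine hmx3a, a homeobox gene of the ear and lateral line, stood second for dlx2a at 0.44, ahead of mafba at 0.382 and hoxa13b at 0.267. For dlx1a, igf1rb, a receptor for insulin-like growth factor, had 0.586 and 0.967 without the 2 farthest pairs, hoxa13b had 0.474 and 0.259, and hmx3a had 0.354 and -0.0629. By cosine that order turned, with hmx3a at 0.684, igf1rb at 0.551 and hoxa13b at 0.253. For dlx5a over 8 pairs, hmx3a had 0.775 and 0.343, mafba had 0.468 and 0.633, and rarga, a retinoic acid receptor, had 0.125 and -0.303. Their cosines with dlx5a were 0.797, 0.46 and 0.0905. Over 7 shared pairs, and so outside the rule, hoxb5a (0.851), hoxb1b (0.405) and dbx1b (0.274) had higher Pearson correlations with dlx5a than rarga.

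Little of the surrounding pathway could be read from the array. All 8 dlx genes listed were present by symbol, but dlx4a had a ratio in 2 pairs and dlx4b in 3, so 3 of 8 were tested. Of 25 genes listed for forebrain GABAergic neurons and their regulation by Dlx factors, 2 were present by symbol, nkx2.1 and nkx2.4b, and neither had enough ratios for the test. Of 28 genes listed for the jaw and pharyngeal arches, 0 were present by symbol. Most probes carry records that no table used here pairs with a gene, so these counts cover the 47 probe spots with a symbol.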

How the data were processed

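Total RNA from plate pools of whole zebrafish embryos was amplified, labelled with Cy3 or Cy5 and hybridised in dye-swapped pairs, per the labels. Per the file headers, the image software BlueFuse gave each channel's intensity as an amplitude, with no background column. They also hold a confidence and a probability of a spot being on, each a fraction between 0 and 1 deposited by the authors. The authors' processed log2 ratios, deposited as a table, ran as Cy5 over Cy3: in 20 of 20 columns the highest rank correlation, 0.379 to 0.839, was with the column's own array. Column medians were -0.0444 to 0.0654, and the normalization is not stated, so the scale is unknown.

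From the amplitudes, log2 ratios of Cy5 over Cy3 were normalized per array by loess (span 0.3, 4 iterations) with limma 3.58.1, run under R 4.3.3, and statmod 1.5.0 estimated correlations within pairs. The 750 control spots and the spots of grade E had weight 0 and were then left out. Grade E marks a confidence below 0.1, and also 122 to 437 spots per array of higher confidence. The 172 spots of 1 repeated probe were averaged, signs were aligned, and both orientations gave 1 mean value per pair, missing where either spot had grade E. lmFit and eBayes were fitted to the probes with a ratio in at least 8 of 9 pairs. The fit had up to 5 residual and 8.67 prior degrees of freedom, with Benjamini-Hochberg adjustment over all 3652 probes. The prior draws the spread of each probe, and so its SE and interval, toward that of all probes. Pool levels are amplitudes after loess and quantile normalization of the mean log intensity between arrays, and were not tested.

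Groups were taken from the labels. Alternatives were all 20 arrays in 10 pairs, a background from empty spots (normexp, offset 50), other normalizations, the grade E spots kept, a ratio in 6 pairs, single arrays, separate channels, the value table, 1 scan batch and each pair left out. Replicate numbers were not taken to pair the pools. The deviations of same-numbered pools from their group means had correlations of -0.512 to 0.366 over 32 pairs of pools, 10 of them above 0.1. From so few pools per group these correlations cannot exclude a shared origin. Likeness between genes was measured by the Pearson correlation of pair ratios, naming the 3 highest among probes with a symbol and at least 8 shared pairs; the cosine, added after seeing the data, does not depend on which pool is on top. Gene symbols came from 61 probe spots with a RefSeq record, of which 47 matched the reference table (assembly GRCz12tu, used for names and neighbours). Precision is limited by the number of pools and of pairs. The fit from averaged pairs on was tested on simulated data. The dlx genes, the gene lists and the tests were chosen with earlier results of these data known. Figures were drawn with matplotlib 3.10.9.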

Additional observations from a re-analysis of the deposited data

How the results depend on the processing

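With at most 4 pools per group, the absence of a call does not exclude a difference within the printed interval. In the weaker pools the dlx5a signal was often near that of empty spots, and that of dlx1a and dlx2a less often. The part of this weak signal in the results was not tested. The dlx1a and dlx2a amplitudes each passed the 95th percentile of the empty spots in 26 of 36 channels, against 20 of 36 for dlx5a. In DMSO 0.025 replicate 3 none of these genes passed it on either array. Under the settings run, dlx1a and dlx2a were never called. The dlx5a difference between DMSO 0.1 and DMSO 0.025 kept its sign in the settings that gave it a value, which leaves out separate channels and the replicate block. It was called with the second scan batch alone, at 1.64, and without DMSO 0.025 replicate 1 and control replicate 1, at 2.20. The latter setting leaves DMSO 0.025 with replicates 2 and 3, in which dlx5a was on in at most 1 array. Leaving out 1 pair of pools at a time gave, for dlx5a, 0.73 to 2.20 for DMSO 0.1 minus DMSO 0.025, 0.43 to 1.42 for DMSO 0.1 minus control, -1.77 to -0.25 for DMSO 0.025 minus control, 0.01 to 0.59 for DMF 0.1 minus control, -0.0789 to 1.01 for DMF 0.025 minus control, -0.42 to 0.16 for DMF 0.1 minus DMF 0.025, -0.87 to -0.26 for DMF 0.1 minus DMSO 0.1 and 0.46 to 1.70 for DMF 0.025 minus DMSO 0.025. In the same order of comparisons the dlx1a ranges were -0.0619 to 0.14, -0.0667 to 0.15, -0.15 to 0.00982, 0.08 to 0.33, 0.17 to 0.52, -0.44 to -0.05, 0.12 to 0.27 and 0.31 to 0.58, and the dlx2a ranges were -0.30 to -0.03, -0.00374 to 0.31, 0.03 to 0.38, 0.07 to 0.29, 0.10 to 0.36, -0.11 to 0.0909, -0.0264 to 0.16 and -0.27 to 0.0728.

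Differences that changed sign were all small and uncalled, and the cause was not tested. The dlx1a difference of DMSO 0.1 minus control was 0.00274 after normexp with the background from empty spots. It was 0.0104 with grade E spots kept, and 0.0104 with loess fitted on all spots, a setting chosen after seeing the data. For dlx1a these are the same estimate. It has no grade E spot, and both settings fit the loess on all spots. The dlx1a value of DMSO 0.1 minus DMSO 0.025 was -5.15e-05 in the authors' value table. The dlx2a value of DMF 0.025 minus DMSO 0.025 was 0.0560 with loess per print tip and 0.000228 in the value table, and the dlx5a value of DMF 0.1 minus DMF 0.025 was 0.0197 in the value table and 0.0842 with loess on all spots. The replicate number was also used as a replicate block, although the numbers were not taken to pair the pools. With that block dlx1a was 0.0323 for DMSO 0.1 minus control and 0.00600 for DMSO 0.025 minus control. The dlx2a value was 0.19 for DMF 0.1 minus DMF 0.025. That block left 0 probes called for DMSO 0.1 minus control and 0 for DMF 0.1 minus DMSO 0.1, and dlx5a, with 8 of 9 pairs, could not be fitted with it or in separate channels.

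The number of probes called among all tested also changed with the setting, and so did the number tested. It was 3652 in the fit, 4072 with all 20 arrays, 16407 with grade E spots kept and 2838 in separate channels. With a ratio in 6 pairs it was 5105 or 5118, and in the second scan batch 3716 or 3825, depending on the comparison. It also varied with the pair left out, so the counts below are not shares of the same number. DMSO 0.1 minus control had 10 calls, and 1 with all 20 arrays, 0 with loess per print tip, median centring, grade E spots kept or the value table, 5 with a ratio in 6 pairs, 19 with single arrays, 17 in the second scan batch and 193 in separate channels, which treat the 2 arrays of a pair as independent. DMSO 0.1 minus DMSO 0.025 had 16, and 30 after normexp, 4 with median centring, 0 with grade E spots kept or the value table, 91 with single arrays, 41 in the second batch and 532 in separate channels. DMF 0.1 minus DMSO 0.1 had 26, and 5 with all 20 arrays, 3 with loess per print tip, 0 with median centring, grade E spots kept or the value table, 59 with single arrays and 261 in separate channels. For DMF 0.025 minus control, with 0 calls, the counts were 1 with grade E spots kept, 1 with single arrays, 3 in the second batch and 30 in separate channels. DMF 0.025 minus DMSO 0.025, with 0, had 3 with single arrays, 3 in the second batch and 107 in separate channels. In the second batch DMSO 0.025 minus control had 5, DMF 0.1 minus control 1 and DMF 0.1 minus DMF 0.025 1, and in separate channels the last 2 had 1 and 2. With 1 pair left out the counts were 0 to 19 for DMSO 0.1 minus control, 1 to 57 for DMSO 0.1 minus DMSO 0.025, 0 to 79 for DMF 0.1 minus DMSO 0.1, 0 to 1 for DMF 0.025 minus control and 0 to 19 for DMF 0.025 minus DMSO 0.025.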

Other observations

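On array 2, outside the fit because its partner repeats the scan of array 17, dlx5a was the only one of the 6 dlx spots above grade E. Its log2 ratio there was 0.34, DMSO 0.1 replicate 1 over DMF 0.025 replicate 2, from 1 dye orientation. On that array 3782 spots had grade E at a confidence of 0.1 or more, dlx1a among them at 0.8.

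With grade E spots kept, dlx3b gave the widest values among the members without a test, at 1.63 ± 0.52 for DMF 0.025 minus DMSO 0.025 and -2.02 ± 0.48 for DMSO 0.025 minus control (log2 ± SE), with adjusted p of 0.488 and 0.839 in limma. Both rest on second-batch spots of grade E, on which dlx3b was on in 4 of 24 channels.

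Outside the rule for naming similar genes, which asks for the highest correlations over at least 8 pairs, dbx1b, a homeobox gene of the neural tube, had a correlation of -0.912 with dlx1a over 8 pairs, and -0.261 without the 2 farthest pairs. hoxb5a had 0.851 with dlx5a over 7 pairs, and 0.785 without the 2 farthest. Both were chosen after their values were seen.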
